A study of Mus musculus with 2 samples.

Results

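Of the 32291 genes in the deposited single-cell table, 10 genes of the epithelial acute-phase and antimicrobial defence are described here: Saa1, Saa2, Saa3, Reg3b, Reg3g, Lcn2, Duox2, Duoxa2, Slpi and Ltf. They were listed by name, with no rule on a measured value, but with earlier results of these data known. Serum amyloids A (Saa1, Saa2, Saa3) are acute-phase proteins that bind lipids and retinol, and are induced by microbes and cytokines in the gut epithelium. Reg3b and Reg3g are secreted C-type lectins that act on bacteria at the mucosal surface. Lcn2 and Ltf withhold iron from bacteria, Lcn2 by binding their siderophores and Ltf by binding iron itself, and both are stored in neutrophil granules. Duox2 is an NADPH oxidase that releases hydrogen peroxide at the apical membrane, and Duoxa2 is the factor that lets it mature and reach the surface. Slpi inhibits serine proteases of leukocytes and protects mucosa. Cytokines such as IL-22, IL-17 and IL-1 are known to induce many of these genes in the intestine.

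Cells came from colitis-associated colon tumors (CACs) of female mice on a C57Bl/6 background, 6 to 10 weeks old at the first injection, that carried floxed Mir34a alleles. The library labelled Mir34a F/F came from littermates without Cre. The library labelled Mir34a ΔMye came from mice with LysM-Cre, which is expressed from the Lyz2 locus in macrophages, neutrophils and other myeloid cells. Whether Mir34a was intact in the epithelial cells was not tested here. All mice received azoxymethane (AOM, 10 mg/kg) and 3 periods of dextran sodium sulfate (DSS) in the drinking water, at 2.5% and finally 2%, for 5 days each. Tumors were taken on day 110, and 6 to 8 of them from 3 mice made up the single library of a genotype. Genotype and library cannot be told apart in this design, so no p-value was computed between them, and cells did not serve as replicates.

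The level of an mRNA is the mean over cells of its UMIs (unique molecular identifiers, 1 for each captured mRNA molecule) per 10000 UMIs of the cell. Intervals of levels and ratios are at 95% and cover counting error only, not the variation between cells or between mice. Those of shares of cells are binomial at 95%, take each cell as independent and do not cover the variation between mice. In what follows, the value for Mir34a F/F stands before that for Mir34a ΔMye where a pair is given. The libraries held 20312 and 18571 cells in 11 annotated cell types, with a median of 4787 and 7716 UMIs per cell. In each of the 11 cell types Mir34a ΔMye had the higher depth, between 1.11 times (endothelial cells) and 5.69 times (B cells), and the higher share of mitochondrial UMIs. The libraries shared 96 cell barcodes. Of 10 epithelial markers, 9 and 10 were highest in the 11614 and 9865 epithelial cells, and none was at 0 there. Basophils, with 48 and 40 cells, had 4 and 3 of 5 markers highest in their own type. The other 9 cell types had 5 of 5.

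The members lie in clusters of the mouse genome (GRCm38, GENCODE genes). Saa3 (chr7:46711998-46715700, minus strand), Saa1 (chr7:46740497-46742980, minus) and Saa2 (chr7:46751790-46754313, plus) are neighbours on chromosome 7, with the starts of Saa1 and Saa2 8810 bases apart on opposite strands. Reg3b (chr6:78370657-78373466, plus) and Reg3g (chr6:78466269-78468872, minus) lie on chromosome 6. Duox2 (chr2:122279247-122298449, minus) and Duoxa2 (chr2:122298900-122302885, plus) point away from each other, with starts 451 bases apart. Lcn2 (chr2:32384633-32388252, minus) and Slpi (chr2:164354070-164389095, minus) lie elsewhere on chromosome 2, and Ltf (chr9:111019271-111042767, plus) on chromosome 9.

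The promoters of the Saa1 and Saa2 pair and of the Reg3b and Reg3g pair are shown because the mRNAs of each pair varied together over epithelial cells, as given further on. Each runs from 250 bases before to 50 bases after the RefSeq start, 5′ to 3′ on the strand of the gene (GRCm38.p6). Capitals mark matches on either strand. They are matches to the C/EBP-like motif TTGCNNAA in the Saa pair, and to the STAT motif TTCNNNGAA or the TATA box, which reads TATAAA, in the Reg3 pair. No 2 matches overlap. The promoters of Duox2 and Duoxa2, whose mRNAs also varied together, are not shown.
Saa1, chr7:46742931-46743230, minus: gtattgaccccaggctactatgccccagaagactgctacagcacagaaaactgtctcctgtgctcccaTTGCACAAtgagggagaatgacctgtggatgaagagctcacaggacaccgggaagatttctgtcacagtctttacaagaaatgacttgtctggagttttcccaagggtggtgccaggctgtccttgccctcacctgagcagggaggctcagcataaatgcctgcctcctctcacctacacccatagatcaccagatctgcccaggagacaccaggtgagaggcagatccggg
Saa2, chr7:46751583-46751882, plus: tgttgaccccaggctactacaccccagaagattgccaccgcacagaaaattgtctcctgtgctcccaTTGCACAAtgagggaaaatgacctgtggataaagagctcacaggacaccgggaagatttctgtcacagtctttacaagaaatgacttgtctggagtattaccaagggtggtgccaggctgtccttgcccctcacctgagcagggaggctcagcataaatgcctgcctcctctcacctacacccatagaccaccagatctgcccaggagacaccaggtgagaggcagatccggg
Reg3b, chr6:78370635-78370934, plus: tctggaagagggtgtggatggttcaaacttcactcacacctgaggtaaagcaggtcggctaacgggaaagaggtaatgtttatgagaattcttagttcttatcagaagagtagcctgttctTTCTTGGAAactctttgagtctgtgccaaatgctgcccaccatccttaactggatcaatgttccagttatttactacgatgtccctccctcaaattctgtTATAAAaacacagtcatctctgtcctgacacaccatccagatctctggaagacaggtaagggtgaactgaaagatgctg
Reg3g, chr6:78468825-78469124, minus: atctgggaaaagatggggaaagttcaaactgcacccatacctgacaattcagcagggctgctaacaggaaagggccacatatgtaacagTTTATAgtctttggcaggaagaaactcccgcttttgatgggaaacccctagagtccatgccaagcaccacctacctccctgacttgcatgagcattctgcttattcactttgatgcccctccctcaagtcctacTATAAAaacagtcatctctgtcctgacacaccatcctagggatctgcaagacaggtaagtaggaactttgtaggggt

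Aligned over their whole length, the Saa1 and Saa2 promoters were 95.3% identical, those of Reg3b and Reg3g 69.0%, and those of Saa1 and Saa3 54.2%. TTGCNNAA was found in 6 of the 10 members' promoters (Saa1, Saa2, Saa3, Lcn2, Slpi and Ltf) and in 10.8% of 32851 RefSeq promoters of this length. TATAAA was found in those of Reg3b, Reg3g and Duoxa2 and in 13.6% of all, TTCNNNGAA in that of Reg3b and in 8.30% of all. TGANTCA (AP-1 factors) was found in that of Duoxa2 and in 7.81% of all. A form of the NF-kB motif, GGG followed after 3 bases of any kind by TTCC, was found in 0 of the 10 and in 5.56% of all. A match is a description of these letters and not a site shown to be bound. In the last 400 bases of the longest transcripts, where 3′ libraries collect their reads, Saa1 and Saa2 were 93.1% identical. None of 311 windows of 90 bases from Saa1 occurred unchanged in Saa2, nor did any from Reg3b in Reg3g. Reads with sequencing errors could still be split between Saa1 and Saa2, so the lower of the pair, Saa2, is the less certain value.

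**Figure D1:**
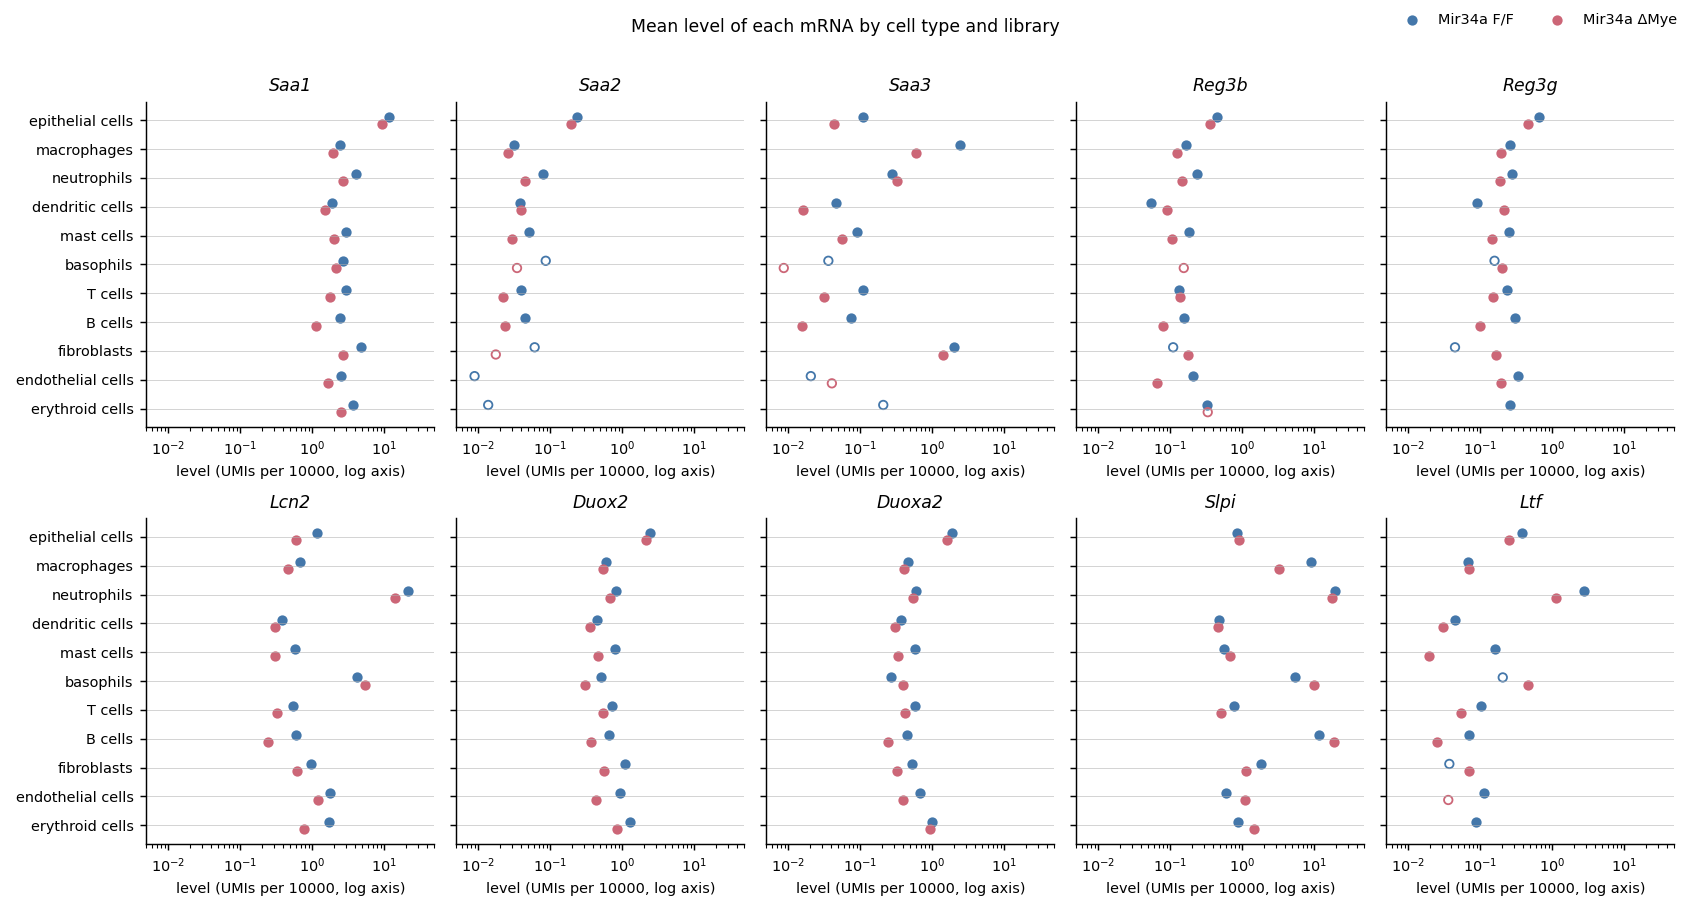
Mean level (UMIs per 10000, log axis) of each of the 10 mRNAs in 11 cell types, blue for Mir34a F/F and red for Mir34a ΔMye, 1 library each. Open circles rest on 3 UMIs or fewer, and levels at 0 are not drawn. Saa1, Saa2, Reg3b, Reg3g, Duox2 and Duoxa2 were highest in epithelial cells, Lcn2 and Ltf in neutrophils.

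Which cells of a CAC hold these mRNAs was asked first. In both libraries 6 of the 10 members had their highest level in epithelial cells (Saa1, Saa2, Reg3b, Reg3g, Duox2 and Duoxa2), while over all genes 12.0% and 8.62% were highest there. Saa1 was at 11.9 and 9.44 UMIs per 10000 in epithelial cells, 2.46 and 3.46 times its level in fibroblasts, the next cell type. Fibroblasts and neutrophils were not apart beyond counting error, and from summed UMIs neutrophils came next in both libraries. Saa1 was detected in 70.9% (70.1 to 71.7) and 72.3% (71.4 to 73.2) of epithelial cells. Duox2 was at 2.42 and 2.17 and Duoxa2 at 1.92 and 1.63. Reg3b was at 0.444 and 0.360, Reg3g at 0.652 and 0.459, and Saa2 at 0.236 and 0.198. The lead of epithelial cells was not beyond counting error for Reg3b over erythroid cells in both libraries, for Saa2 over basophils in Mir34a F/F and for Duoxa2 over erythroid cells in Mir34a ΔMye. By the mean level after thinning each cell to 1000 UMIs, 6 members were still highest in epithelial cells of Mir34a F/F, but 3 in Mir34a ΔMye (Saa1, Reg3b and Duox2). The other values near the lead rest on few UMIs, such as 4 and 2 for Reg3b in erythroid cells. Along the order of the 11 cell types, at most 6 of 10 neighbouring steps of any member were larger than counting error, and for Duox2, Duoxa2 and Reg3g 1 step of 10 in each library.

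The lower levels of the epithelial members in other cell types lay near those of other epithelial mRNAs. In T cells, which should lack them, the 10 epithelial markers stood at a median of 35.6% and 28.8% of their epithelial level. Saa1 stood at 24.8% and 19.1% there, Saa2 at 16.7% and 11.2%, Duox2 at 30.0% and 25.1%, and Duoxa2 at 30.7% and 26.0%. Reg3b, at 30.3% and 38.8%, and Reg3g, at 35.8% and 32.6%, were above the marker median in 1 and 2 libraries. Over 10 members and 10 other cell types, 54 and 50 of 100 values were at or below the median of the epithelial markers. In cells with at least 500 genes and under 10% mitochondrial UMIs the second count was 33. Values at or below this median are at the level of background here and are not read as expression. Their source was not tested. After thinning each cell to 1000 UMIs, Saa1 was found in 36.1% and 35.4% of epithelial cells and in 21.5% and 14.5% of T cells. Unthinned, median depths were 5315.5 and 6623 UMIs in epithelial cells against 3548 and 8043 in T cells. For Reg3b the thinned shares were 1.87% (1.63 to 2.15) and 2.27% (1.98 to 2.58) of epithelial cells. In T cells they were 1.17% (0.81 to 1.62) and 1.44% (1.02 to 1.97). Both were low. Their intervals take each cell as independent and come from a single random thinning, so the small gap between them is not read as a difference.

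Lcn2 and Ltf were highest in neutrophils in both libraries, as were 4.6% and 6.72% of all genes. Lcn2 was at 21.6 and 14.3 there against 1.18 and 0.597 in epithelial cells. Basophils came next, at 4.27 and 5.53, and also held 460 and 396 UMIs per 10000 of 5 neutrophil markers summed. The part of neutrophil RNA in these values was not tested. Lcn2 was found in 79.1% and 76.2% of neutrophils, and 15.9% and 12.9% of them held 50% of its summed level. Ltf was at 2.78 and 1.15 in neutrophils and at 0.385 and 0.251 in epithelial cells. It was found in only 14.3% and 11.9% of neutrophils, and 15 and 7 cells held 50% of its level. Lcn2 was thus spread over neutrophils, whereas Ltf was concentrated in a few.

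Slpi and Saa3 had other sources. Slpi was highest in neutrophils of Mir34a F/F, at 19.7, and in B cells of Mir34a ΔMye, at 19.2, against 11.7 in B cells and 17.8 in neutrophils of the respective other library. From summed UMIs B cells were highest in both libraries, at 25.5 and 30.1 against 17.8 and 18.1 in neutrophils. In B cells it lay with immunoglobulin. The 279 and 552 B cells with at least 10% immunoglobulin UMIs, as plasma cells have, held Slpi at 37.6 and 31.9, and the other 664 and 374 B cells at 0.862 and 0.501. The split was chosen after the values were seen. Macrophages held Slpi at 9.18 and 3.25, and 58 and 55 of 2208 and 2601 cells held 50% of this. Epithelial Slpi was at 0.858 and 0.915, and its level in T cells was 90.5% and 56.3% of that. Little of it was above background in Mir34a F/F. In Mir34a ΔMye, after thinning, Slpi was found in 7.78% of epithelial and 4.77% of T cells. Saa3 was at 2.46 and 0.595 in macrophages and at 2.02 and 1.42 in the 57 and 60 fibroblasts, where 1 and 2 cells held 50% of it. In Mir34a F/F these 2 cell types did not differ beyond counting error. In epithelial cells Saa3 was at 0.111 and 0.0433, and in T cells at 0.111 and 0.0318. It was not detectably above background in the epithelium of Mir34a F/F. In both libraries its level in macrophages and in fibroblasts was higher than in epithelial cells.

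Epithelial cells were then split by Krt20, a keratin of differentiated colonocytes. Krt20 was above 0 in 3864 and 3298 epithelial cells and 0 in 7750 and 6567. The same 5 members were at least 2-fold higher in Krt20-positive cells in both libraries (Saa1, Saa2, Reg3b, Duox2 and Duoxa2), while 3.11% and 4.01% of 9008 genes were. The call of Reg3b did not hold without the 1% of epithelial cells highest in it, as given below. Saa1 was at 24.7 in Krt20-positive and 5.58 in other cells of Mir34a F/F, and at 19.7 and 4.27 in Mir34a ΔMye, a log2 ratio of 2.14 (2.11 to 2.17) and 2.21 (2.17 to 2.24). Krt20-positive cells held 82.1% and 86.1% of the epithelial Saa1 UMIs, beside 53.6% and 61.6% of those of Epcam. Of all epithelial UMIs they held 40533786 of 94415818 and 43203040 of 88662011. The log2 ratio of Saa2 was 2.29 (2.09 to 2.49) and 2.73 (2.48 to 2.98). Duox2 was at 4.04 against 1.61, and 3.78 against 1.36, a log2 ratio of 1.33 and 1.48. Duoxa2 followed with 1.42 and 1.52. The oxidase and its maturation factor thus had ratios of nearly the same size. Krt20-positive cells were deeper, with medians of 7804.5 and 11021 UMIs against 4256.5 and 4861, and had 12.2% and 22.2% mitochondrial UMIs against 10.4% and 14.2%. In Mir34a ΔMye the log2 ratio of Saa1 was 1.18 in cells with at least 500 genes and under 10% mitochondrial UMIs, and that of Saa2 was 1.49 after thinning.

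Markers of other cell types also differed across the split. The 10 epithelial markers summed to 148.0 UMIs per 10000 in Krt20-positive and 92.9 in other cells of Mir34a F/F, and to 104.8 and 65.0 in Mir34a ΔMye. Macrophage markers summed to 1.28 against 1.87, and 1.65 against 2.94. B cell markers summed to 1.71 against 2.02, and 4.66 against 8.74, and mast cell markers to 4.47 against 6.58, and 5.71 against 10.9. Neutrophil markers summed to 9.88 against 10.8, and 8.90 against 11.8. Of the 10 other cell types, the markers of 9 were lower in Krt20-positive cells of both libraries. Those of erythroid cells were higher, at 1.38 against 0.621, and 1.14 against 0.178. Their part in the Krt20 ratios was not tested.

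In epithelial cells of 5000 to 20000 UMIs the levels were graded by the number of Krt20 UMIs. Across 0, 1, 2 to 4 and 5 or more Krt20 UMIs, Saa1 was at 4.64, 14.9, 28.0 and 47.4 in Mir34a F/F and at 3.90, 10.1, 22.1 and 32.2 in Mir34a ΔMye. Duox2 was at 1.41, 2.53, 4.30 and 6.97, and at 1.29, 2.32, 4.55 and 6.15. For both mRNAs every step was upward in both libraries. Lcn2 went the other way, at 1.67, 1.14, 0.495 and 0.358 in Mir34a F/F and at 0.482, 0.355, 0.271 and 0.236 in Mir34a ΔMye. At 2 to 4 and at 5 or more Krt20 UMIs it lay below its level in T cells, 0.539 and 0.328. Over all epithelial cells its log2 ratio between Krt20-positive and other cells was -0.83 (-0.91 to -0.75) and -0.88 (-1.02 to -0.74). The level of Slpi was 0.711 and 0.548 at the ends of this scale in Mir34a F/F, and 0.600 and 0.627 in Mir34a ΔMye. For Saa3 the intervals of the Krt20 ratio included 0 in both libraries.

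**Figure D2:**
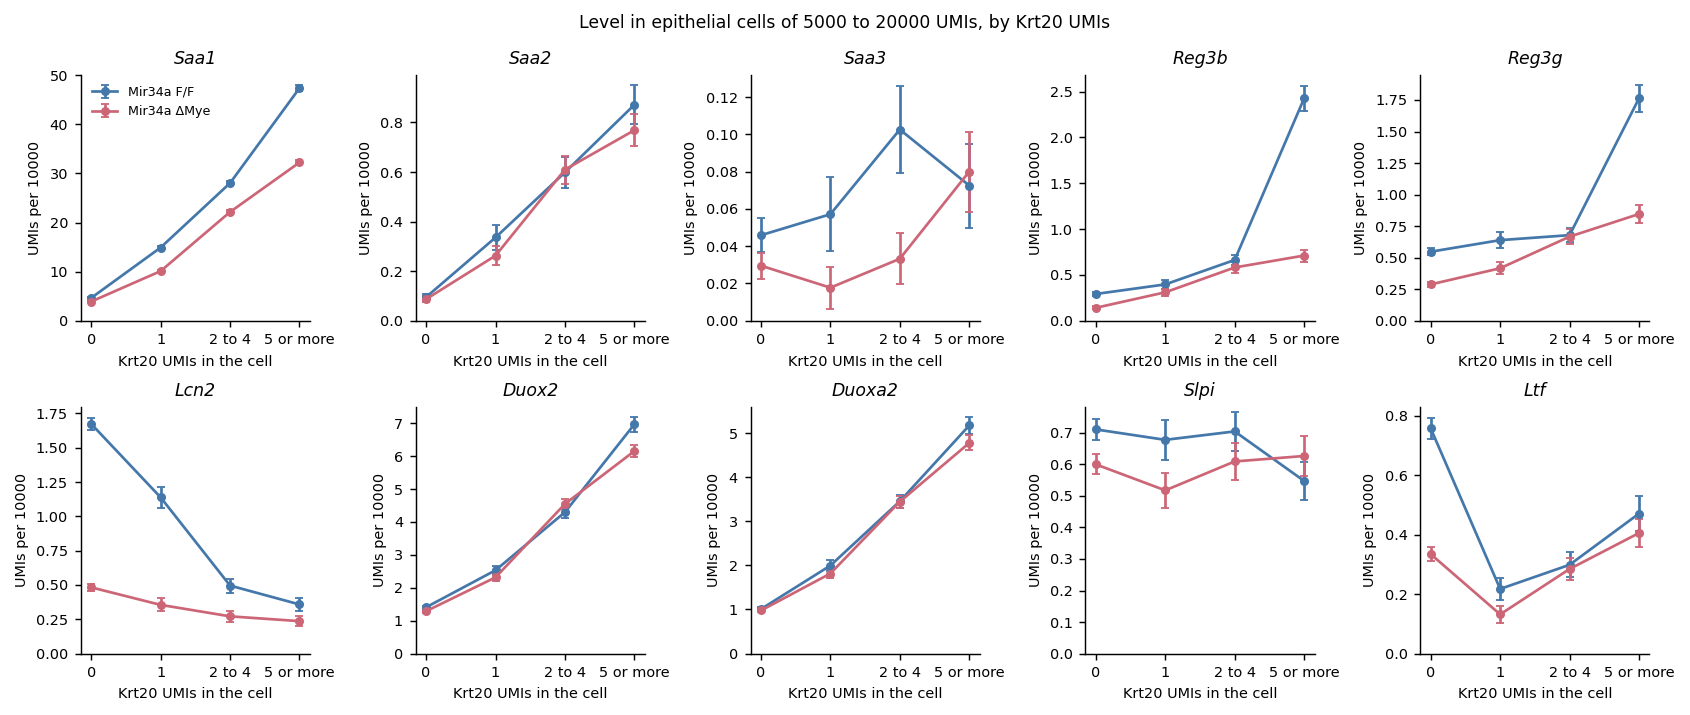
Mean level (UMIs per 10000) of each mRNA in epithelial cells of 5000 to 20000 UMIs, by the number of Krt20 UMIs in the cell, blue for Mir34a F/F and red for Mir34a ΔMye. Bars are 95% counting intervals. Saa1, Saa2, Reg3b, Reg3g, Duox2 and Duoxa2 were higher at each step and Lcn2 was lower at each step, in both libraries.

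Reg3b and Reg3g differed from Saa1 and Saa2, although they too rose at each Krt20 step. Their log2 ratios between Krt20-positive and other cells were 1.59 and 1.25 for Reg3b, and 0.78 and 0.88 for Reg3g. The share of cells with Reg3b, however, was 8.76%, 8.98%, 9.36% and 8.76% across the Krt20 steps in Mir34a F/F, while its level was 0.292, 0.396, 0.663 and 2.42. The higher mean therefore came from few cells. In Mir34a F/F, 22 of 11614 epithelial cells held 50% of the summed Reg3b level, and in Mir34a ΔMye 44 of 9865. Cells with at least 50 Reg3b UMIs per 10000 numbered 14 and 9, of which 10 and 8 were Krt20-positive, and all held Epcam. This threshold of 50, used below for Ltf and Lcn2 too, was chosen after the values were seen. Without the 1% of epithelial cells highest in the gene, the log2 ratio was -0.039 (-0.27 to 0.19) and -0.12 (-0.37 to 0.14) for Reg3b, and -0.042 and -0.38 for Reg3g. Leaving out these cells was chosen after the values were seen.

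Ltf was also held by few epithelial cells. In Mir34a F/F 8 epithelial cells and in Mir34a ΔMye 64 held 50% of its level, and the highest cell was at 732 and 341. Of 7 and 3 cells at 50 or more, 0 and 1 were Krt20-positive. The share of cells with Ltf nevertheless was 8.29%, 11.9%, 17.6% and 25.4% across the Krt20 steps in Mir34a F/F, and 7.34%, 9.63%, 17.9% and 23.9% in Mir34a ΔMye. Without the 1% highest cells, the log2 ratio of Ltf between Krt20-positive and other cells was 1.26 and 1.49, instead of -0.55 and 0.021. The 7 cells of Mir34a F/F held 28.9 UMIs per 10000 of the 5 neutrophil markers, against 10.5 in all epithelial cells and 1586 in neutrophils. The 3 cells of Mir34a ΔMye held 6.63, against 10.8 in all epithelial cells of that library. By contrast, 653 and 591 cells held 50% of Saa1, 1103 and 1024 of Duox2, and 3015 and 2334 of Epcam.

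**Figure D3:**
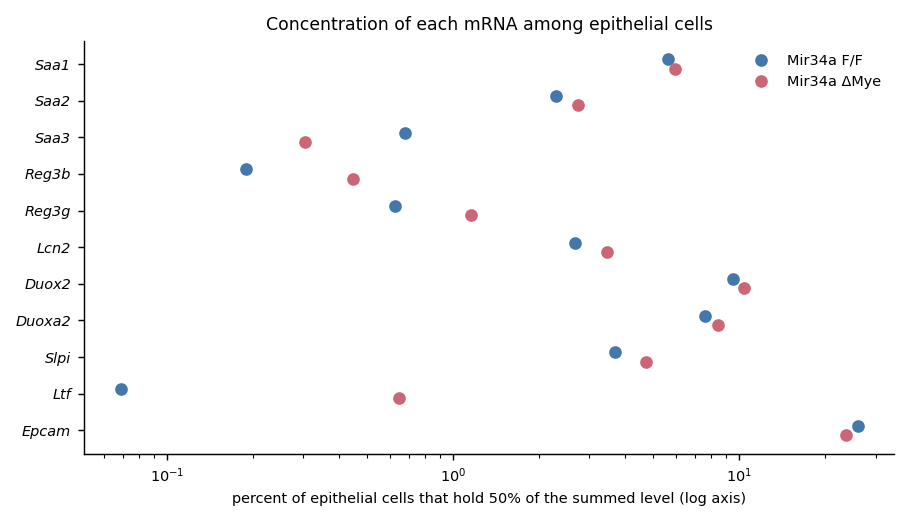
Percent of epithelial cells that together hold 50% of the summed level of each mRNA (log axis), blue for Mir34a F/F and red for Mir34a ΔMye, with Epcam as an evenly held mRNA. Ltf, Reg3b and Saa3 were held by under 1% of cells in both libraries, Duox2 by 9.50% and 10.4%.

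Whether the mRNAs varied together was described by Pearson correlation over the 10987 and 9705 epithelial cells with at least 1000 UMIs. These cells share a library, their depth and free RNA, so no p-value is given. The members of each gene pair varied together, Duox2 with Duoxa2 (r = 0.54 and 0.50), Saa1 with Saa2 (0.48 and 0.51), and Reg3b with Reg3g (0.43 and 0.31). Saa1 also varied with Duox2 (0.45 and 0.41), Duoxa2 (0.44 and 0.38) and Krt20 (0.47 and 0.42). The Reg3 pair stood apart from this group, with r of Saa1 to Reg3b of 0.035 and 0.026. The genes nearest to Saa1 were Clca4b, Lypd8 and Cdhr5 (0.65, 0.62 and 0.57 in Mir34a F/F, 0.58, 0.58 and 0.50 in Mir34a ΔMye), of which Lypd8 keeps flagellated bacteria from the epithelium. Those nearest to Duox2, after Duoxa2, were Clca4b (0.47 and 0.46) and Clca3b (0.48 and 0.45), and both were also nearest to Duoxa2 after Duox2. After Saa1, Saa2 lay nearest to Clca4b (0.40 and 0.43) and Lypd8 (0.36 and 0.39). Reg3b had Dmbt1 and Clu after Reg3g, both under 0.1, and Reg3g had Clps (0.16 and 0.065) and Spink4 (0.12 and 0.089) after Reg3b. Slpi lay nearest to Sval1 (0.15 and 0.10) and to the immunoglobulin genes Igha (0.073 and 0.17) and Igkc (0.078 and 0.16). The part of plasma cell RNA in these values was not tested. The nearest to Lcn2 were Ifitm3, Gstm5 and Ecscr, at 0.28, 0.29 and 0.25 in Mir34a F/F but 0.16, 0.14 and 0.12 in Mir34a ΔMye. Those of Ltf were Psca (0.31 and 0.20), Ppbp (0.31 and 0.17) and Gsto1 (0.20 and 0.17). Those of Saa3 were 1110046J04Rik, Igha and Igkc, with none above 0.1. In cells of 5000 to 20000 UMIs the nearest to Slpi were Sval1 (0.17 and 0.21), Tff3 (0.16 and 0.19) and Spink1 (0.16 and 0.19). Neither immunoglobulin gene was among these. The nearest to Saa3 there were Saa1, Clca3a2 and Hp, again with none above 0.1.

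**Figure D4:**
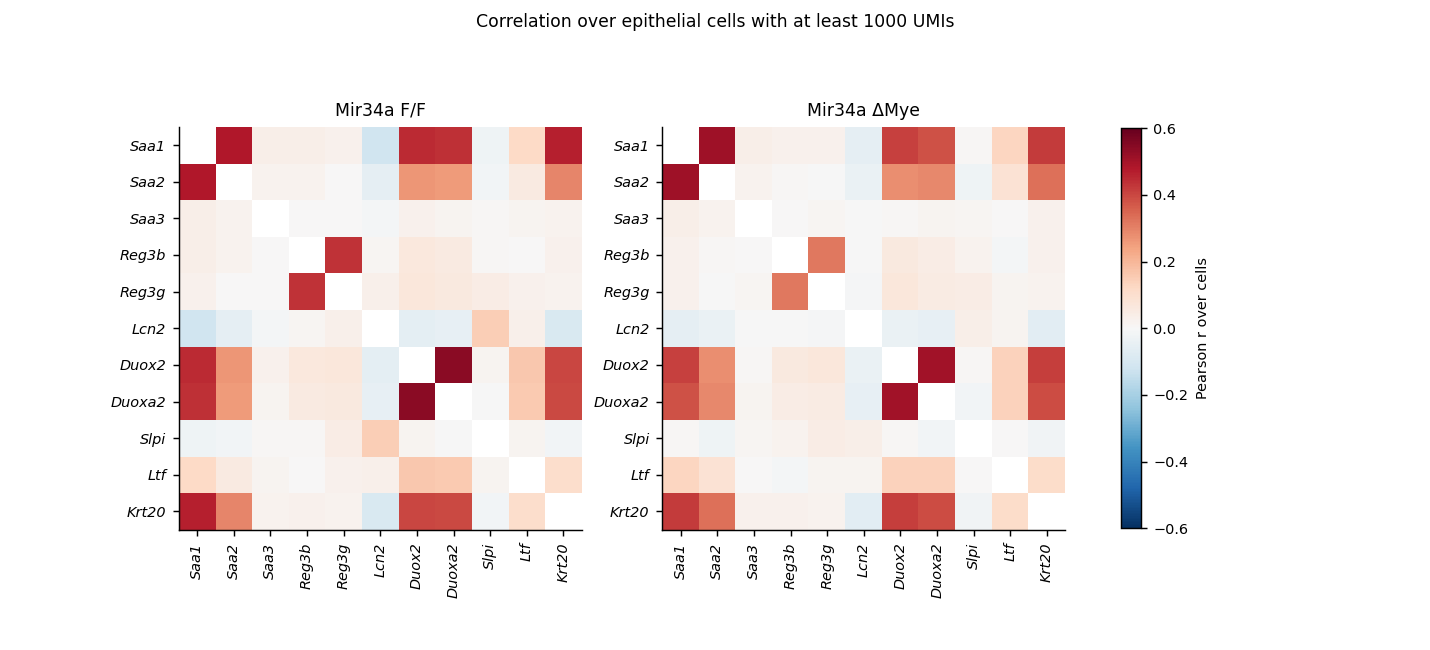
Pearson correlation over epithelial cells with at least 1000 UMIs between the 10 mRNAs and Krt20, for each library. Saa1, Saa2, Duox2, Duoxa2 and Krt20 form 1 block, Reg3b and Reg3g a separate pair, and Lcn2 is slightly negative to the block.

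The libraries were compared next in epithelial cells. Of the 10 members, 9 were lower in Mir34a ΔMye. Of the 9 that reached a mean level of 0.1, 8 were lower, while 87.9% of 9009 genes were lower in the same comparison and the median log2 ratio of all genes was -0.22. A lower value was hence the usual direction in these cells. Saa1 was lower by a log2 ratio of -0.34 (-0.35 to -0.32), Duox2 by -0.16 (-0.20 to -0.12) and Duoxa2 by -0.23 (-0.28 to -0.19), against the median of -0.22. The 10 epithelial markers summed to 111.2 and 78.3 UMIs per 10000 in these cells, a log2 ratio of -0.51, which is a larger fall than that of Saa1, Duox2 or Duoxa2. Markers of B cells summed to 1.92 and 7.38 in the same cells, those of mast cells to 5.88 and 9.17, those of macrophages to 1.68 and 2.51, those of fibroblasts to 0.0509 and 0.147, and those of erythroid cells to 0.873 and 0.50. Neutrophil markers were at 10.5 and 10.8. The part of these cells in the epithelial ratios was not tested. In Mir34a ΔMye the authors report more epithelial cells of an inflammatory subtype and fewer of the Lgr5+, Krt20+ and Ki67+ subtypes. The part of these subtypes was not tested either. Of the 9 members that reached a level of 0.1, 0 were at least 2-fold apart, while 0.311% of the 9009 genes were at least 2-fold lower and 0.3% at least 2-fold higher. Saa3, which lies below that level and is not among these genes, was at -1.35 (-1.69 to -1.02), and at -2.35 without the 1% of cells highest in it and -0.41 with the B cell level subtracted. Lcn2 was at 1.18 and 0.597, a log2 ratio of -0.99 (-1.07 to -0.91). Its level in T cells was 45.6% and 55.0% of that. After thinning it was found in 7.88% and 4.96% of epithelial and in 4.99% and 3.37% of T cells. From summed UMIs Lcn2 was lower by more, at -1.82 (-1.87 to -1.78). Reg3g was at -0.51, Ltf at -0.62, Reg3b at -0.30 (0.49 in cells with at least 500 genes and under 10% mitochondrial UMIs), Saa2 at -0.25 and Slpi at 0.094 (0.011 to 0.18). Several directions depended on how cells were weighted. From summed UMIs Saa1, Saa2, Duox2 and Duoxa2 were higher in Mir34a ΔMye, by log2 ratios of 0.23, 0.46, 0.21 and 0.21. Epithelial cells with more than 1% immunoglobulin UMIs numbered 339 and 2925, and without them the ratio of Slpi was -0.49, that of Saa2 0.084 and that of Lcn2 -1.36. With the T cell level subtracted Slpi was at 2.30 (1.01 to 3.59). T cells of Mir34a ΔMye held fewer B cell and neutrophil markers than its epithelial cells, as given above, which this subtraction does not account for.

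In T cells 6 and 5 of the 10 members were at or below the median of the epithelial markers. Of the 7 members with a mean level of at least 0.1 there, 6 were lower in Mir34a ΔMye, as were 59.0% of 8928 genes at that level, and Reg3b was at 0.055 (-0.32 to 0.43), or -0.087 (-0.37 to 0.20) from summed UMIs. Saa2, Saa3 and Ltf, below that level, were lower as well. The 10 epithelial markers summed to 40.6 and 22.3 UMIs per 10000 in T cells, a log2 ratio of -0.86. The log2 ratio there was -0.72 for Saa1, -0.72 for Lcn2, -0.42 for Duox2, -0.92 for Ltf, -0.59 for Slpi and -1.80 for Saa3. The part of free RNA in the epithelial ratios was not tested. In neutrophils Lcn2 was at -0.60 (-0.64 to -0.56) and Ltf at -1.28 (-1.37 to -1.18), while Slpi was at -0.14 and Saa3 at 0.23 (-0.13 to 0.58). From summed UMIs Ltf was at -0.92, which is under 2-fold, and Saa3 at 0.72 (0.43 to 1.01). The 5 neutrophil markers summed to 1586 and 1038 UMIs per 10000 there, a log2 ratio of -0.61 and so of the size of that of Lcn2. Of 7612 genes in neutrophils 1.29% were at least 2-fold lower. In macrophages Saa3 was at -2.05 (-2.14 to -1.96) and Slpi at -1.50 (-1.54 to -1.45). From summed UMIs Saa3 was at -1.36 (-1.43 to -1.28). The fall of Slpi was smaller as well, with 6.65 and 3.33 UMIs per 10000 from summed UMIs against 9.18 and 3.25 as means. There, 0.559% of 8593 genes were at least 2-fold lower in Mir34a ΔMye. In macrophages 24 and 13 cells held 50% of the Saa3 level. In macrophages neutrophil markers summed to 11.3 and 10.5 UMIs per 10000, B cell markers to 1.61 and 5.77, mast cell markers to 4.99 and 7.47, epithelial markers to 31.3 and 23.6 and erythroid markers to 2.57 and 0.0900. The part of these other cells in the macrophage ratios was not tested. The authors sub-clustered macrophages together with monocytes. They report fewer monocytes, Spp1+ and Nos2+ macrophages and more Cdk8+ and Mrc1+ macrophages in Mir34a ΔMye. The part of these subtypes in the macrophage ratios was not tested either. The Slpi ratio of 0.71 over all B cells was -0.24 (-0.27 to -0.20) within those with at least 10% immunoglobulin UMIs and -0.78 (-1.16 to -0.40) within the others.

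**Figure D5:**
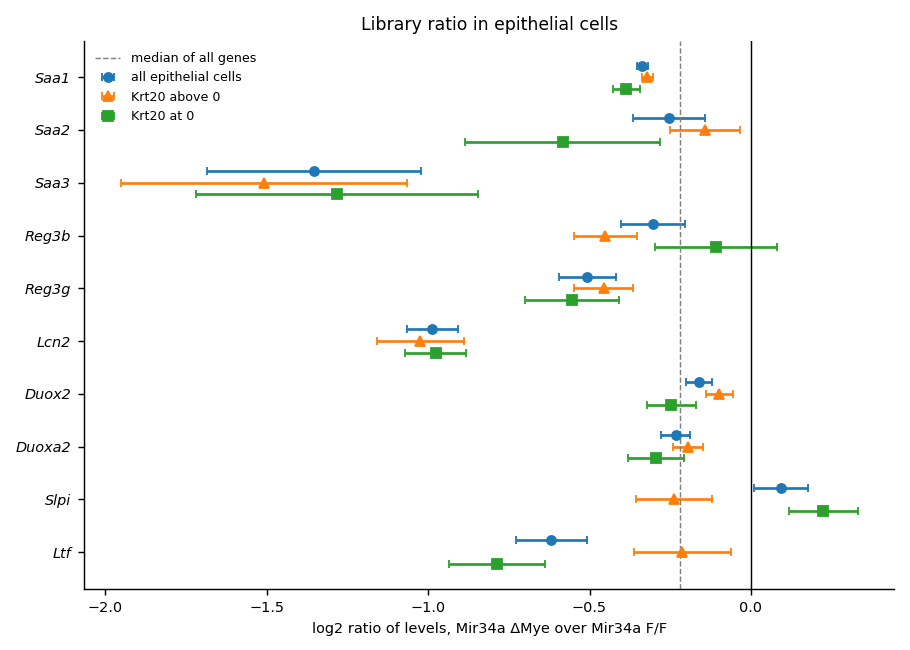
Log2 ratio of the level in Mir34a ΔMye over Mir34a F/F for each mRNA in all epithelial cells, in those with Krt20 above 0 and in those with Krt20 at 0, with 95% counting intervals. The dashed line is the median of all genes, -0.22, and Saa3 and Lcn2 lie farthest below it.

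The lower Lcn2 was seen on both sides of the Krt20 split, with -1.02 (-1.16 to -0.89) in Krt20-positive cells and -0.98 (-1.07 to -0.88) in the others. At 50 or more Lcn2 UMIs per 10000 there were 26 epithelial cells in Mir34a F/F, of which 2 were Krt20-positive, and 1 in Mir34a ΔMye. The 26 cells had a median of 17033 UMIs and 2.65% mitochondrial UMIs, against 11.2% in all epithelial cells of that library. They held 2.28 UMIs per 10000 of the neutrophil markers and all had Epcam. Without the 1% highest cells the log2 ratio of Lcn2 was -0.81 (-0.90 to -0.72). For Ltf it was -0.033 (-0.18 to 0.11) without them, and for Reg3b 0.22 (0.049 to 0.40). For Ltf the log2 ratio between the libraries was -0.21 in Krt20-positive and -0.79 in other cells, and for Slpi -0.24 and 0.22. The difference between these ratios was 0.57 (0.36 to 0.79) for Ltf and -0.46 (-0.62 to -0.30) for Slpi. It was 0.44 (0.12 to 0.76) for Saa2 and -0.34 (-0.55 to -0.13) for Reg3b, and its interval included 0 for Saa3, Reg3g and Lcn2. For Saa1, Duox2 and Duoxa2 it was between 0.065 and 0.15, with intervals off 0. These intervals cover counting error only, and much of Ltf and Reg3b was held by few cells.

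Other genes of these pathways were described from lists. The genes highest in the epithelium are named from each, and those called in the Krt20 split, with Il22ra1, Osmr and Wfdc2 among them, were added after the values were seen. Of 22 measured antimicrobial genes, 13 reached a level of 0.1 in epithelial cells, 0 were 2-fold apart between the libraries, and 4 were at least 2-fold higher in Krt20-positive cells of both, against 2.78% of all genes. They were Lypd8 (log2 ratio 1.86 and 1.56), Nos2, which makes nitric oxide (1.21 and 1.64), Wfdc2 (1.20 and 1.31) and Ido1, which degrades tryptophan (1.41 and 1.44). The other highest of this list were Pglyrp1, which binds peptidoglycan, at 16.4 and 12.2 UMIs per 10000, Wfdc18 at 11.3 and 7.41 and Lyz1 at 6.39 and 5.37. The median Krt20 ratio of the 13 genes was 0.24 and -0.013, against -0.15 and -0.15 over all genes. Of 14 acute-phase genes 5 reached this level, and 1 of them, complement factor Cfb, was 2-fold higher with Krt20 (1.06 and 1.05). Pigr, which carries IgA across the epithelium, was at 9.19 and 9.75 UMIs per 10000 and highest of this list, above Il1rn and Lrg1. Of 10 NADPH oxidase genes 6 did, and 0 were 2-fold higher with Krt20, Noxo1 being at 0.52 and 0.57. The others highest were Cyba (3.94 and 3.18 UMIs per 10000), Rac1 and Cybb. Of 27 receptors and factors that induce such genes 23 did, and 2 were 2-fold higher with Krt20: Il22ra1, the receptor chain for IL-22 (1.11 and 1.42), and Osmr, the receptor for oncostatin M (1.10 and 1.22). Stat3, which acts behind both receptors, was at 0.036 and 0.050. It was among the 4 highest, with Nfkbia (3.42 and 3.25 UMIs per 10000), Nfkbiz and Nfkb1. Of 12 inducing cytokines 7 and of 14 partners 6 reached the level, with 0 called in either comparison. None of the 12 cytokines and none of the 14 partners had its highest level in epithelial cells in both libraries. In the other lists 9 antimicrobial genes, 3 oxidase genes, 1 acute-phase gene and 1 of the receptors and factors did. Il1b was highest in neutrophils, at 24.8 and 44.5, and Il17a in T cells, at 6.58 and 7.43. The part of RNA from other cells in the epithelial levels of the genes of all these lists was not tested. The highest cytokines in epithelial cells were Tnf (1.53 and 1.24 UMIs per 10000), Il1b (1.02 and 1.58), Il1a and Il17a, and the highest partners Anxa2 (8.27 and 5.81), Plscr1, Tfrc and Lrp1. No gene of the acute-phase, oxidase or receptor lists that reached it was 2-fold apart between the libraries.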

How the data were processed

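The processed values of 2 single-cell RNA-seq libraries were used. By the authors' account the 10x 3′ v3.1 kit was used, reads were counted with Cell Ranger 7.2.0 on mm10, cells with under 200 expressed mRNAs or 25% or more mitochondrial RNA and Scrublet doublets were removed, and Seurat LogNormalize was applied. The values the authors deposited are on a natural log scale, ln(1 + UMIs per 10000). The log was undone and whole UMIs were recovered (largest deviation 1.5e-10). Library and cell type came from the deposited annotation, which names no mouse.

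A level is the mean over cells of UMIs per 10000. Library totals were 147109016 and 193133086 UMIs. Shares of cells with a UMI have exact binomial intervals that take each cell as independent, and ratios have intervals from Poisson counting at 95%. No p-value was computed. Calls are a rule of size, at least 2-fold, among genes with a mean level of at least 0.1. On simulated epithelial UMIs of 1000 genes, 96.2% of the intervals held the true library ratio. The UMIs were drawn as Poisson counts at the same rate in all cells of a library, scaled by depth. A value near 95% follows from that design, which holds no other variation between cells or mice. Coverage for the measured members was not tested, and much of Ltf, Reg3b and Saa3 was held by few epithelial cells.

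All 10 members are named, and from each list the counts, up to 4 genes of highest epithelial level and any 2-fold apart between the libraries. Genes called in the Krt20 split were added after the values were seen. For each member the 3 nearest genes by mean r were named. Members and lists were chosen with earlier results of these data known. Pla2g2a of the antimicrobial list is not in the table. Alternatives were summed UMIs, thinning, subtraction of T or B cell levels, stricter cell filters, leaving out epithelial cells over 1% immunoglobulin, a pseudocount of 0.1, at least 2 Krt20 UMIs, and cells of 5000 to 20000 UMIs. Leaving out the 1% highest cells was added after the values were seen. Python 3.11.15, numpy 2.4.6, scipy 1.17.1, pandas 2.3.3, Biopython and matplotlib 3.10.9 were used.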

Additional observations from a re-analysis of the deposited data

Results flagged for a closer look

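For 2 mRNAs the ratio between the libraries had opposite signs in different cell types, each by at least 0.5 on the log2 scale with a counting interval off 0. The difference itself was not tested, since each genotype had 1 library. Reg3g had a log2 ratio of Mir34a ΔMye over Mir34a F/F of 1.25 (0.44 to 2.05) in dendritic cells, from 26 and 71 UMIs, and of -1.59 (-2.09 to -1.09) in B cells, from 191 and 120 UMIs. All 4 levels were below that of epithelial cells. In dendritic cells Reg3g stood at 13.9% and 46.8% of its epithelial level, against an epithelial marker median of 24.1% and 21.7%. The value for Mir34a F/F was thus at background and is not read as expression. In B cells it stood at 46.7% and 22.1%, against 33.0% and 20.8%. The summed epithelial markers had a log2 ratio of -1.20 in B cells and -0.59 in dendritic cells. The part of background in the Reg3g ratios was not tested. Slpi had 0.87 (0.09 to 1.65) in endothelial cells, from 65 and 74 UMIs, and -1.50 (-1.54 to -1.45) in macrophages, from 12953 and 11048 UMIs. From summed UMIs the ratio of Slpi in endothelial cells was -0.0019 (-0.48 to 0.48), so the opposite sign was not seen there. The ratio of Reg3g in dendritic cells from summed UMIs was 0.30 (-0.34 to 0.95). Slpi was also higher in Mir34a ΔMye in basophils, at 0.85 (0.53 to 1.16), and in B cells, at 0.71 (0.67 to 0.75). From summed UMIs its levels were 6.10 and 9.12 in basophils, 25.5 and 30.1 in B cells, and 6.65 and 3.33 in macrophages. Opposite signs thus remained between these cell types. Basophils, however, numbered only 48 and 40 cells and held markers of other cell types. As mean levels, their neutrophil markers summed to 460 and 396, and their mast cell markers to 46.4 and 187. The part of these other cells in the basophil ratio of Slpi was not tested. Of all genes in basophils, 12.9% were at least 2-fold higher in Mir34a ΔMye and 19.9% at least 2-fold lower. Within B cells split by immunoglobulin, Slpi was lower on both sides, as given above.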

How the results depend on the processing

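No paired analysis was possible because each genotype had 1 library. The number of all 10 members, with no minimum level, at least 2-fold apart between the libraries in epithelial cells was 1, Saa3, and 0 among the 9 that reached 0.1. It was 2 from summed UMIs, with the T cell level subtracted and without epithelial cells over 1% immunoglobulin, and 0 with the B cell level subtracted and with a pseudocount of 0.1. Members highest in epithelial cells of Mir34a ΔMye numbered 3 instead of 6 after thinning to 1000 UMIs. Values at or below the epithelial markers in other cell types of Mir34a ΔMye numbered 33 instead of 50 in cells with at least 500 genes and under 10% mitochondrial UMIs. The counts of members higher in Krt20-positive cells stayed within 1.5 times, but not always with the same members. Without the 1% of cells highest in the gene, Reg3b was no longer among them and Ltf was. Library ratios with an interval off 0 changed sign as follows, and the cause was not tested. From summed UMIs the log2 ratio was 0.23 for Saa1, 0.46 for Saa2, 0.21 for Duox2, 0.21 for Duoxa2 and -0.59 for Slpi in epithelial cells, and 0.021 for Slpi in neutrophils and -0.0019 for Slpi in endothelial cells. Without epithelial cells over 1% immunoglobulin it was 0.084 for Saa2 and -0.49 for Slpi. With the B cell level subtracted it was 0.041 for Reg3g and 0.028 for Duox2, and in T cells 0.43 for Saa1, 1.33 for Duox2 and 0.30 for Duoxa2. Reg3b was at 0.49 in cells with at least 500 genes and under 10% mitochondrial UMIs and at 0.22 without the 1% of cells highest in it. Krt20 ratios without these cells were -0.039 and -0.12 for Reg3b, -0.042 and -0.38 for Reg3g, and 1.26 for Ltf in Mir34a F/F. That of Slpi was 0.13 from summed UMIs in Mir34a F/F, and 0.15 and 0.18 after thinning. Few UMIs limit Saa2, Saa3 and all values in basophils, fibroblasts and erythroid cells.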

Other observations

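In cells other than the epithelium the members varied with different genes. These cell types were chosen after the values were seen, and r is given over cells with at least 1000 UMIs, which share a library and their depth. In 1026 and 1076 neutrophils Ltf lay nearest to Camp, a cathelicidin of the granules (r = 0.82 and 0.81), and to Ngp (0.58 and 0.56). Lcn2 lay nearest to Wfdc21 (0.65 and 0.66) and Retnlg (0.65 and 0.63), and Slpi to S100a9 (0.42 and 0.48). In 2193 and 2595 macrophages Saa3 lay nearest to Chil3 (0.38 and 0.25) and Hp (0.32 and 0.30), and Slpi to Clec4e (0.51 and 0.43) and F10 (0.47 and 0.41). In 931 and 922 B cells Slpi lay nearest to Igkc (0.68 and 0.70) and Jchain (0.67 and 0.69).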
